A study of Mus musculus with 21 samples.

Results

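The 5 genes described here are Abcb4, the gene disrupted in the Mdr2 knockout mouse, with Abcb1a, Abcb1b, Sri and Gnai1, which lie near it on mouse chromosome 5. They were found by matching the gene symbols of the platform annotation, which gave 9 probe sets of the 20380 probe sets with 1 gene symbol, and 5 of 12393 genes. The genes were chosen by their KO and control signals in these same livers. Their KO minus control differences are therefore given as a description, with a standard error (SE) and no test. Abcb4 and Abcb1b had 1 probe set each, Abcb1a and Sri 2 each, and Gnai1 3.

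Liver RNA was measured on 21 arrays from male mice aged 9 months. Every mouse had a 30% partial hepatectomy, in which part of the liver is cut away so that the remainder regrows, and the lobe taken at surgery was the day 0 sample. The KO groups were Mdr2-/- mice of strain FVB129P2, with 6 samples on day 0, 3 on day 2 and 3 on day 6. The control groups were mice of strain FVB129P2/FVBNJ, with 3 samples on each of the same days. The labels do not say whether the controls carried 2 intact copies of Abcb4, and genotype and strain background cannot be told apart. The 12 KO samples came from 6 mice and the 9 control samples from 6 mice. Of these mice, 9 gave both a day 0 and a later sample, and samples are named below by their mouse number. Values are log2 signals computed by the authors with GCRMA, which corrects background and joins the probes of a probe set into 1 value.

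Abcb4 encodes the canalicular transporter that moves phosphatidylcholine into bile, where it shields the bile ducts from bile salts; mice without it develop bile duct injury, fibrosis and liver tumours. Abcb1a and Abcb1b encode the mouse P-glycoproteins, efflux pumps for drugs and other lipophilic compounds, and are the closest relatives of Abcb4. Sri encodes sorcin, a penta-EF-hand calcium-binding protein, and Gnai1 encodes an inhibitory G protein alpha subunit that lowers adenylyl cyclase activity. In the gene order of RefSeq (GRCm38.p6), Abcb1b was the protein-coding gene next to Abcb4, and Abcb1a stood 2 genes away on the same side. Sri stood 7 genes away on that side and Gnai1 34 genes away on the other.

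The promoters of the 3 ABC transporter genes are shown because Abcb4 and its relatives stood on opposite sides of the controls in KO livers. Each is the RefSeq plus strand from 250 bases before to 50 after the annotated start, 300 bases in all (GRCm38.p6, 5′ to 3′), at chr5:8893471-8893770 for Abcb4, chr5:8797897-8798196 for Abcb1b and chr5:8566841-8567140 for Abcb1a. Capitals mark a CCAAT box on either strand, which reads ATTGG where it lies on the minus strand. They also mark the GC-rich motif GGGCGG, and no marked motif overlapped another.
Abcb4: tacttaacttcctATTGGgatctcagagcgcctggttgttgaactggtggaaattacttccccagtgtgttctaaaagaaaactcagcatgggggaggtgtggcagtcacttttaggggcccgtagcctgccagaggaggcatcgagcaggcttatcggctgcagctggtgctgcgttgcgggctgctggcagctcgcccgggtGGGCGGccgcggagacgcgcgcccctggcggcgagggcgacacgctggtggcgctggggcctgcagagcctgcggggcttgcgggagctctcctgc
Abcb1b: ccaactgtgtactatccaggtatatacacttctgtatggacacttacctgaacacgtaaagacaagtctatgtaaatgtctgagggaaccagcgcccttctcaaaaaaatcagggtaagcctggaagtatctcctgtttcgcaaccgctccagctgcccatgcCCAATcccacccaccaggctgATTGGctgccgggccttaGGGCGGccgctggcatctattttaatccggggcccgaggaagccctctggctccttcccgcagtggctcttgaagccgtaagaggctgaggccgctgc
Abcb1a: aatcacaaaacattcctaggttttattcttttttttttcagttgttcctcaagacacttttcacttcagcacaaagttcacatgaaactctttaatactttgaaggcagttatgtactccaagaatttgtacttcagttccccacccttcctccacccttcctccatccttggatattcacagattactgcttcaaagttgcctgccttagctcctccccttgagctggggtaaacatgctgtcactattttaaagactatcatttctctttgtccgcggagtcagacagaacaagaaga
The Abcb4 promoter, at 64% GC, held each of the motifs 1 time. The Abcb1b promoter, at 55% GC, held 2 copies of CCAAT beside 1 of the GC-rich motif. Neither motif was in the Abcb1a window, at 40.3% GC. Of 32851 RefSeq promoters of this length, 37.4% held CCAAT. The share with GGGCGG was 35.7%. The motif TATAAA, also searched on both strands, was in none of the 3 windows and in 13.6% of all promoters. The same held for TGAGTCA, which was in 5.2% of all promoters. All 5 genes matched a RefSeq promoter. The Sri and Gnai1 windows had 43.7% and 80% GC, and Gnai1, on the minus strand, held 3 GGGCGG.

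Array quality touches several values below. The difference between the 3′ and 5′ probe sets of Gapdh, which grows as RNA shortens, exceeded 1 on the log2 scale in 3 arrays. It was 2.03 in KO 337 on day 0, and 1.58 and 9.5 in control 263 and 265 on day 2. Array medians lay between 3.8 and 4.1. Hepatocyte identity was clear on every array, with albumin (Alb) between 14.95 and 15.12 in KO and between 14.66 and 15.12 in control. After a filter that kept probe sets above log2 4 on at least 3 arrays, 11177 probe sets were left, 7 of the 9 described here among them. The number of arrays limits the precision, and a value at or under 4 lies near background.

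Abcb4 was lower in KO livers on all 3 days. Its probe set read 7.59, 8.23, 7.93, 8.96, 8.64 and 7.89 in KO 250, 254, 258, 312, 332 and 337 on day 0, against 9.68, 10.18 and 9.51 in control 263, 265 and 303. On day 2 it read 8.03, 7.88 and 7.89 in KO 250, 254 and 258, against 9.23, 10.33 and 10.22 in control 263, 264 and 265. On day 6 the values were 8.02, 7.25 and 7.93 in KO 312, 332 and 337, against 10.20, 10.16 and 10.08 in control 303, 393 and 392. The highest KO array, 312 on day 0, lay below the lowest control array, 263 on day 2, so no array stood on the other genotype's side. KO minus control was −1.58 ± 0.29 (SE) on day 0, −1.99 ± 0.33 on day 2 and −2.41 ± 0.33 on day 6, which is 0.334, 0.251 and 0.188 of the control signal. The position of the probe set against the disrupted segment is unknown here, so the signal left in KO livers measures no residual transcript. Abcb4, Abcb1a and Abcb1b are close in sequence and the probe sequences were not used here; how far a probe set of one also reads the others was not tested.

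**Figure D1:**
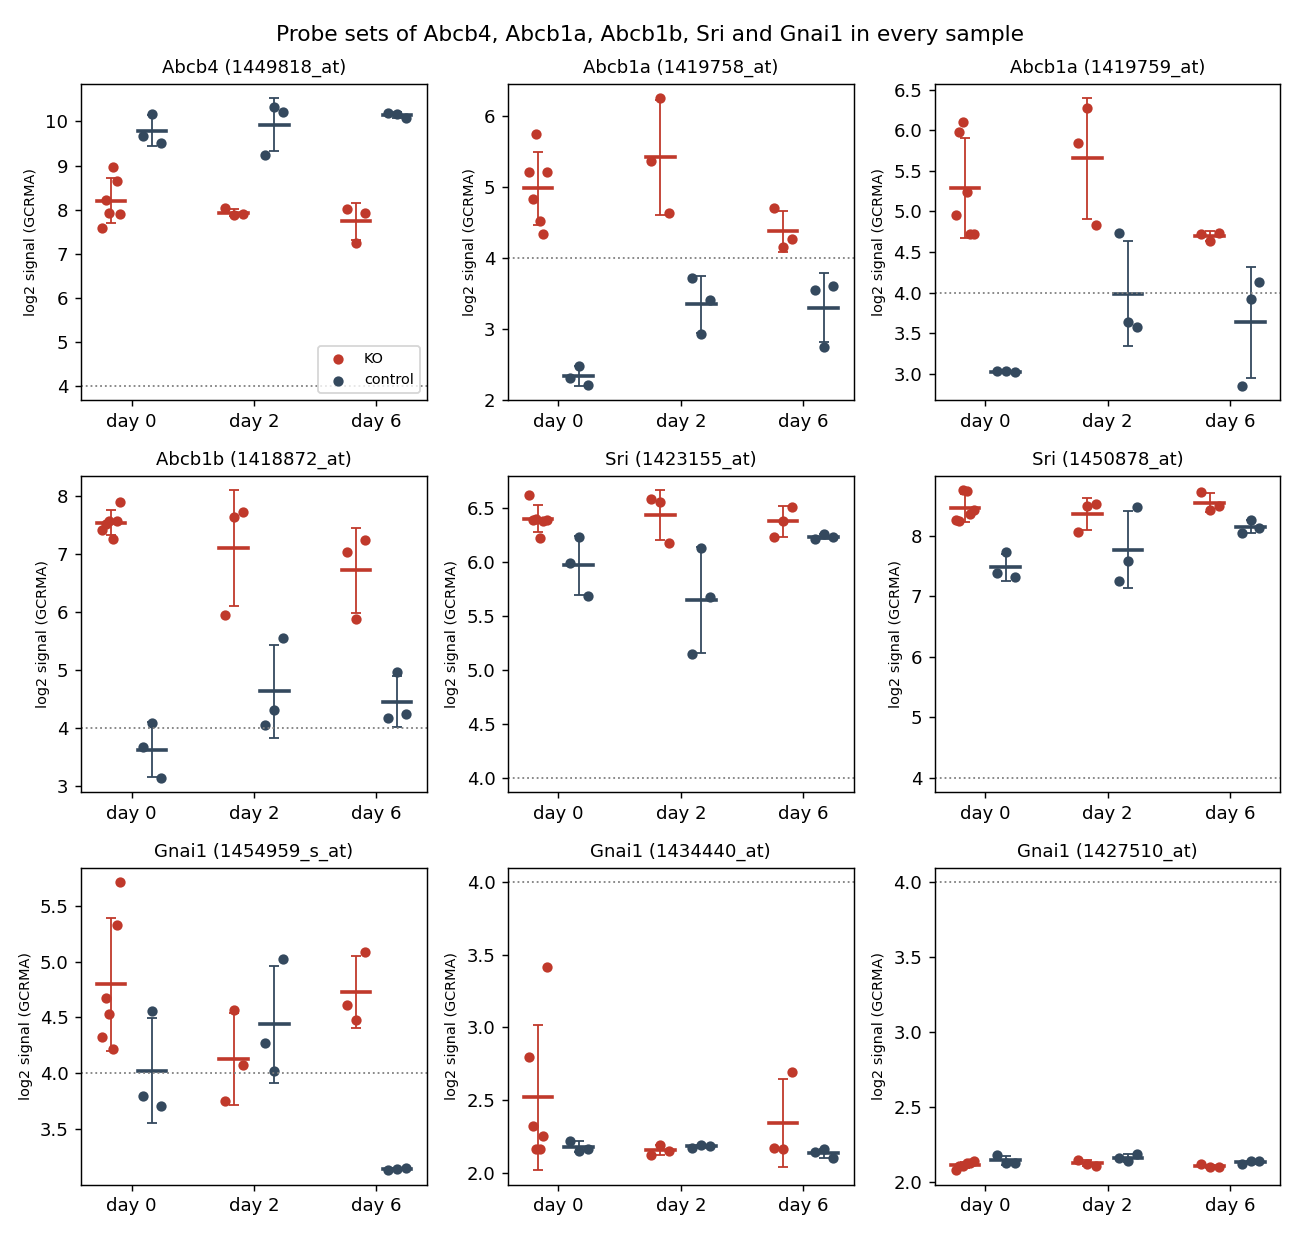
Log2 signal (y axis) of each of the 9 probe sets by day after resection (x axis), with KO in red at the left and control in dark blue at the right of each day. Points are samples, horizontal bars are group means and whiskers are SD (n = 6 for KO on day 0, otherwise n = 3), and the dotted line marks log2 4. Abcb4 sits between 7.25 and 8.96 in KO and between 9.23 and 10.33 in control, while Abcb1b sits between 5.88 and 7.90 in KO and between 3.13 and 5.54 in control.

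Abcb1b, which encodes the P-glycoprotein next door to Abcb4, was far higher in KO livers than in control livers on all 3 days. On day 0 its signal was 7.41, 7.52, 7.57, 7.26, 7.56 and 7.90 in KO 250, 254, 258, 312, 332 and 337, against 3.66, 4.08 and 3.13 in control 263, 265 and 303. On day 2 it was 5.95, 7.63 and 7.72 in KO 250, 254 and 258, against 4.04, 4.30 and 5.54 in control 263, 264 and 265. On day 6 it was 7.03, 5.88 and 7.23 in KO 312, 332 and 337, against 4.16, 4.96 and 4.23 in control 303, 393 and 392. The 6 KO livers were close together at surgery (SD 0.213), and 1 later KO sample on each day, 250 on day 2 and 332 on day 6, lay apart from the other two. All KO values stayed above all control values, the highest of which was control 265 on day 2, the array with the Gapdh difference of 9.5. KO minus control was 3.91 ± 0.40 on day 0, 2.47 ± 0.46 on day 2 (5.55 times the control signal) and 2.26 ± 0.46 on day 6 (4.80 times). On day 0 only 1 of the 3 control arrays was above 4, so that day's control level is near background and no fold is given for it. Without control 265 the day 2 difference was 2.93 ± 0.47.

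Abcb1a was also higher in KO, by both of its probe sets, from a control signal near background. Probe set 1419758_at read 5.21, 4.83, 5.74, 4.52, 4.34 and 5.21 in KO on day 0, in the same order of mice, against 2.30, 2.48 and 2.21 in control. On day 2 it read 5.36, 6.25 and 4.63 in KO against 3.71, 2.92 and 3.40 in control, and on day 6 it read 4.70, 4.15 and 4.26 in KO against 3.55, 2.74 and 3.60 in control. All 12 KO arrays were above 4 and all 9 control arrays below it, so this probe set entered the tests through its KO values only. KO minus control was 2.65 ± 0.33, 2.07 ± 0.38 and 1.07 ± 0.38 on days 0, 2 and 6, each a lower bound on the size.

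The other Abcb1a probe set, 1419759_at, lay between 4.72 and 6.10 (median 5.10) in KO on day 0, against 3.03, 3.03 and 3.02 in control. It was 5.85, 6.28 and 4.83 in KO against 4.73, 3.64 and 3.58 in control on day 2, and 4.72, 4.63 and 4.74 in KO against 2.85, 3.92 and 4.13 in control on day 6. The groups did not overlap on any day, although control 263 on day 2, 1 of the 3 arrays with a raised Gapdh difference, exceeded the lowest KO arrays of days 0 and 6. Its differences were 2.26 ± 0.38, 1.67 ± 0.44 and 1.06 ± 0.44. The first is a lower bound, and the other two rest on control groups with 1 of 3 arrays above 4. In both probe sets the day 6 difference was smaller than those of days 0 and 2, from control values near background.

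Sri (sorcin) was modestly higher in KO at surgery. Its brighter probe set, 1450878_at, read 8.26, 8.24, 8.75, 8.74, 8.36 and 8.42 in KO on day 0, against 7.39, 7.73 and 7.31 in control. On day 2 it was 8.06, 8.49 and 8.52 in KO against 7.25, 7.58 and 8.48 in control, and on day 6 it was 8.72, 8.43 and 8.49 in KO against 8.05, 8.26 and 8.13 in control. Only day 2 overlapped, through control 265. The differences were 0.98 ± 0.22, 0.59 ± 0.25 and 0.40 ± 0.25, and the day 2 value was 0.94 ± 0.21 without control 265 and 0.33 ± 0.25 without control 263.

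The second Sri probe set, 1423155_at, gave smaller differences on days 0 and 6, 0.43 ± 0.18 and 0.14 ± 0.21, and 0.78 ± 0.21 on day 2. It lay between 6.22 and 6.62 in KO against 5.68 and 6.23 in control on day 0, between 6.17 and 6.58 against 5.15 and 6.13 on day 2, and between 6.23 and 6.51 against 6.21 and 6.26 on day 6. Here day 2 alone was free of overlap, and the value was 0.30 without the 3 arrays with a raised Gapdh difference, against 1 control array. Without control 264 it was 1.02 and without control 263 it was 0.53. The day 0 difference of the brighter probe set lay between 0.85 and 1.11 over 31 alternatives.

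Gnai1 was measured by 1 usable probe set, 1454959_s_at, a type that can match several transcripts. Its day 0 values were 4.32, 4.67, 4.53, 4.22, 5.33 and 5.71 in KO against 3.80, 4.56 and 3.71 in control. Day 2 gave 3.75, 4.57 and 4.07 in KO against 4.27, 4.02 and 5.02 in control, and day 6 gave 4.61, 4.48 and 5.09 in KO against 3.13, 3.14 and 3.15 in control. The genotypes overlapped on days 0 and 2. The highest KO array of day 0, 337, and the highest control array of day 2, 265, both had a raised Gapdh difference. On day 6 they were apart, with 3 control arrays at background. KO minus control was 0.77 ± 0.32, −0.31 ± 0.37 and 1.59 ± 0.37. The last is a lower bound, and on day 0 only 1 of 3 control arrays was above 4. Without the arrays with a raised Gapdh difference, which leaves 1 control array on day 2, that day's value was 0.11. The other 2 Gnai1 probe sets did not pass the filter. Probe set 1427510_at lay between 2.08 and 2.19 on all arrays, and 1434440_at between 2.10 and 3.42, highest in KO 337 on day 0.

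**Figure D2:**
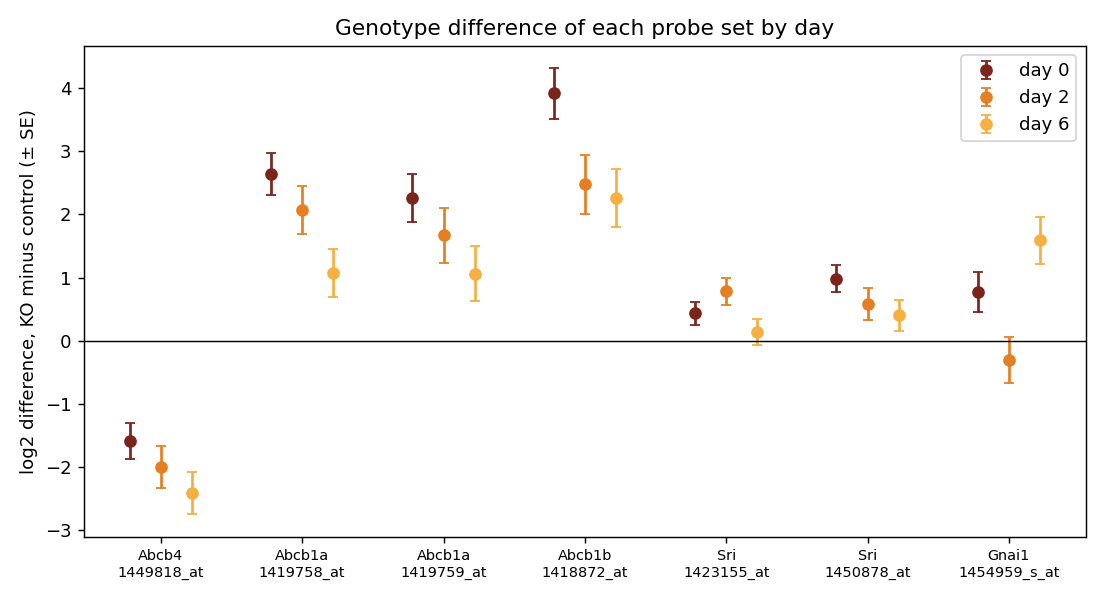
KO minus control difference in log2 signal (y axis, ± SE) of the 7 probe sets that passed the filter (x axis), by day. Abcb4 lies below 0 on each day, between −2.41 and −1.58, Abcb1a and Abcb1b lie above 0, Sri lies between 0.14 and 0.98, and Gnai1 runs from −0.31 on day 2 to 1.59 on day 6.

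The KO and control ranges of a day did not overlap for 5 of the 7 probe sets on day 0, where 17.8% of all 11177 tested probe sets did not overlap. They did not overlap for 5 of 7 on day 2 (20.5% of all) and for 6 of 7 on day 6 (19.9% of all). Over all days together, 12 KO arrays against 9 control arrays, 3 of the 7 were apart, namely Abcb4, Abcb1b and 1419758_at of Abcb1a, against 1.19% of all tested probe sets. In the order of the gap between the ranges they ranked 66, 58 and 42 of 133 such probe sets. The genes were chosen for these values, so the counts only describe them. Of the other probe sets on chromosome 5, 6 of 714 were apart (0.84%).

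The comparisons of days were tested on the same arrays whose KO and control signals were used to choose the genes. They are therefore not independent of that choice. With limma across all tested probe sets and Benjamini-Hochberg adjustment, 0 of 7 passed an adjusted p of 0.05 in any of the 6 comparisons of days within a genotype. In KO, 0% of all probe sets passed for day 2 against day 0, 0.0895% for day 6 against day 0 and 0.0358% for day 6 against day 2. In control, 9.96%, 2.02% and 2% passed for the same pairs of days. At an unadjusted p under 0.05 the counts of the 7 were 0, 0 and 2 in KO and 3, 3 and 2 in control. The share of all tested probe sets at that unadjusted level was not computed. Such counts, here and below, therefore cannot be set against it and are no sign of a difference. The smallest adjusted p was 0.945, 0.968 and 0.728 in KO, and 0.0959, 0.198 and 0.0647 in control.

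Abcb4 did not pass between any pair of days in either genotype. KO day 2 minus day 0 was −0.27 ± 0.29 (SE), with a 95% interval from −0.88 to 0.33, and KO day 6 minus day 0 was −0.47 ± 0.29, from −1.08 to 0.13. In control the day 2 and day 6 differences from day 0 were 0.14 ± 0.33, from −0.56 to 0.84, and 0.36 ± 0.33, from −0.34 to 1.06. Ordered from low to high, the group means of Abcb4 were 7.73, 7.93 and 8.21 in KO, on days 6, 2 and 0, then 9.79, 9.93 and 10.15 in control, on days 0, 2 and 6. Neighbours in that order within a genotype differed by less than the SD of the day 0 samples (0.512 in KO, 0.348 in control). In the same KO mouse, Abcb4 moved by 0.44, −0.35 and −0.04 to day 2 and by −0.94, −1.39 and 0.04 to day 6.

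In control livers the day 2 and day 0 means of Abcb1a and Abcb1b lay about 1 log2 unit apart, without passing the adjusted test. Control day 2 minus day 0 was 1.01 ± 0.38 for 1419758_at of Abcb1a (limma adjusted p = 0.0959), 0.96 ± 0.44 for 1419759_at (adjusted p = 0.161) and for Abcb1b had a 95% interval from 0.03 to 1.97 (SE 0.46, adjusted p = 0.165). Abcb1b in control was 0.55 ± 0.47 without control 265 on day 2. In the control mice sampled at both times, Abcb1b was higher in the later sample by 0.38 in 263 and 1.46 in 265 on day 2, and by 1.03 in 303 on day 6. The Gapdh difference was 1.58 and 9.5 in the day 2 arrays of 263 and 265, and 0.94 in the day 6 array of 303. Abcb1a by 1419758_at was higher in the same mice by 1.41, 0.92 and 1.34, and 1419759_at by 1.70 and 0.55 in 263 and 265 but −0.17 in 303. All 9 control values of 1419758_at lay under log2 4, so its differences between control days compare values near background and show no change of level. Abcb1b in control on day 0 and 1419759_at on each day also had at most 1 of 3 arrays above 4.

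In KO livers the group means of Abcb1b and Abcb1a were lower on day 6 than on day 0, again without passing. For Abcb1b, KO day 6 minus day 0 was −0.82 ± 0.40, with a 95% interval from −1.66 to 0.02 (limma adjusted p = 0.968). Within mice the later value differed by −0.23 in 312, −1.68 in 332 and −0.67 in 337, and without 332 on day 6 the group difference was −0.41. On day 2 the KO mice differed, with −1.46 in 250 against 0.11 in 254 and 0.15 in 258. For Abcb1a, KO day 6 minus day 0 was −0.60 ± 0.33 in 1419758_at (adjusted p = 0.99) and −0.59 ± 0.38 in 1419759_at (adjusted p = 0.999). The mice did not all move one way, with 0.18, −0.19 and −0.95 in 312, 332 and 337 by 1419758_at and −0.52, −0.09 and 0.02 by 1419759_at. Abcb1a in KO differed between days 6 and 2 by −1.04 ± 0.38 in 1419758_at (adjusted p = 0.728) and −0.96 ± 0.44 in 1419759_at (adjusted p = 0.997), from different mice on the 2 days.

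**Figure D3:**
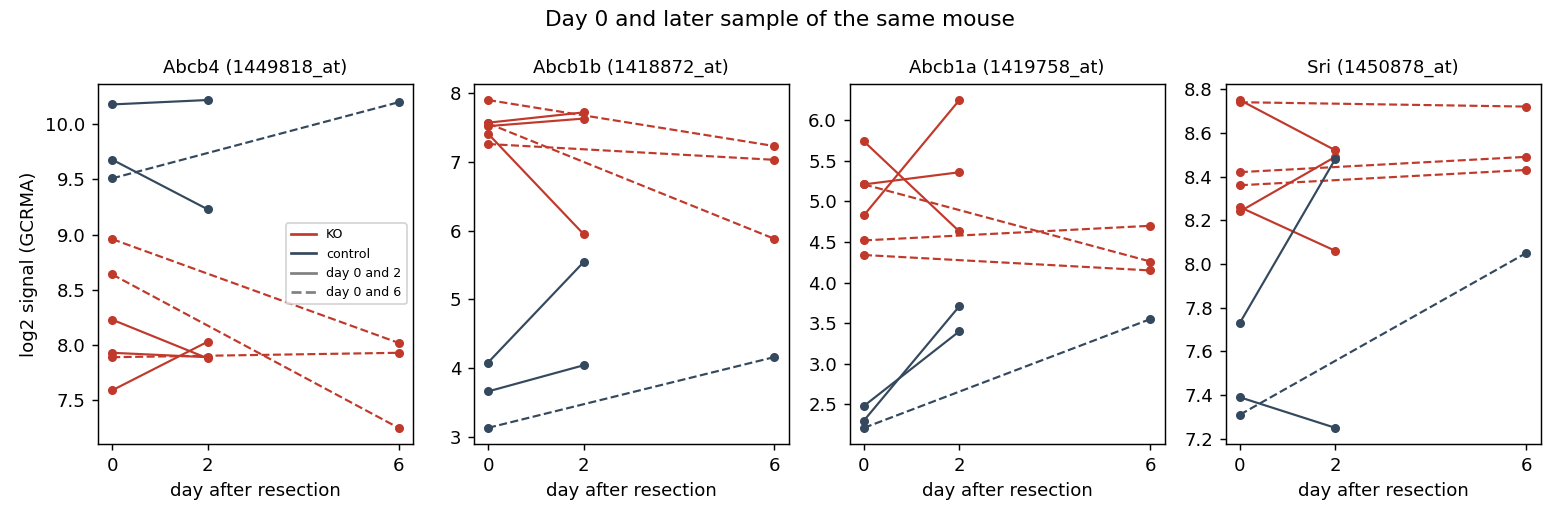
Log2 signal (y axis) on day 0 and on the later day (x axis, day after resection) of the 9 mice sampled at both times, for Abcb4, Abcb1b, 1419758_at of Abcb1a and 1450878_at of Sri. KO mice are red and control mice dark blue, solid lines end on day 2 and dashed lines on day 6. Abcb1b lies higher in the later sample of all 3 control mice (day 2 for 263 and 265, day 6 for 303), by 0.38 to 1.46. It lies lower in the day 6 sample of all 3 KO mice, with differences between −1.68 and −0.23.

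Sri and Gnai1 also had no change past the threshold between days. Sri by 1450878_at was 0.67 ± 0.25 higher on day 6 than on day 0 in control (limma adjusted p = 0.198), while in KO the same difference was 0.08 ± 0.22 (adjusted p = 0.999). With array weights the control difference passed, at 0.69 ± 0.19 (adjusted p = 0.0374). Sri by 1423155_at was 0.58 ± 0.21 higher on day 6 than on day 2 in control (adjusted p = 0.122), and 0.82 ± 0.20 without control 264 (adjusted p = 0.0131). Gnai1 was −1.30 ± 0.37 on day 6 against day 2 in control, a bound because the day 6 arrays were at background (adjusted p = 0.0647). It passed under quantile normalization (−1.47, adjusted p = 0.0468), without KO 337 on day 0 (−1.30, adjusted p = 0.0441) and without control 264 on day 2 (−1.50, adjusted p = 0.0211).

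Whether the response to resection differed between genotypes was tested as an interaction. The interaction is a difference of the KO minus control differences used to choose the genes, so it is not independent of that choice. By limma, 0 of 7 probe sets passed for day 2 (0.0268% of all) and 0 of 7 for day 6 (0.152% of all), with 2 and 2 at an unadjusted p under 0.05. Abcb1b gave −1.44 ± 0.61 for the KO minus the control response to day 2 (adjusted p = 0.289) and −1.65 ± 0.61 to day 6 (adjusted p = 0.669). The response of Abcb4 differed by −0.83 ± 0.44 to day 6 (adjusted p = 0.999). That of Abcb1a to day 6 gave −1.57 ± 0.51 by 1419758_at (adjusted p = 0.524) and −1.20 ± 0.58 by 1419759_at (adjusted p = 0.929). The control response in both Abcb1a values comes from arrays near background, so their size is uncertain. Gnai1 gave −1.08 ± 0.48 to day 2 (adjusted p = 0.305). The 95% interval of the Abcb1b difference, not adjusted for the number of probe sets, ran from −2.72 to −0.16 for day 2 and from −2.93 to −0.37 for day 6. Both Abcb1b values use control day 0, where 1 of 3 arrays was above log2 4, so their size is uncertain too. Without control 265 the day 2 value was −0.98.

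The other genes around Abcb4 were compared to see which else differed by genotype. Among the 15 genes with a probe set on each side of Abcb4, which include Gnai1, Sri, Abcb1a and Abcb1b, 26 were other genes. Of these, 16 had a tested probe set, 23 probe sets of 48 in all. By limma, 3 of 23 probe sets were higher in KO on day 0 (13%, against 7.98% of all tested probe sets called in either direction) and 3 of 23 on day 2 (13%, against 6.15%). On day 6, 0 of 23 passed (1.36% of all), with 6 at an unadjusted p under 0.05. All calls were of Cd36, a fatty acid uptake receptor placed next to Gnai1 among genes with a probe set. They are 3 readings of 1 gene of the 16, so the shares by probe set describe Cd36 alone. Its probe set 1450884_at lay between 2.07 and 3.54 on all control arrays and between 3.93 and 6.04 in KO. It therefore entered the tests through its KO values only.

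Cd36 was higher in KO by 3.57 ± 0.53 on day 0 (limma adjusted p = 0.000265), 3.50 ± 0.61 on day 2 (adjusted p = 0.00457) and 2.42 ± 0.61 on day 6 (adjusted p = 0.0604) in probe set 1450883_a_at. That probe set lay between 8.78 and 10.39 on all KO arrays and between 4.73 and 8.32 on all control arrays. The day 2 call did not pass with array weights (adjusted p = 0.054), with only the groups compared (adjusted p = 0.116) or without the 3 arrays with a raised Gapdh difference (adjusted p = 0.24). The last leaves 1 control array on day 2 and all 3 on day 0, where Cd36 passed under each of these alternatives. Crot, the gene beyond Abcb4 on the side away from Abcb1b, encodes a peroxisomal carnitine acyltransferase and stood 1 gene away. It was 0.66 ± 0.39 on day 0 (adjusted p = 0.366), −1.08 ± 0.45 on day 2 (adjusted p = 0.136) and −0.07 ± 0.45 on day 6 (adjusted p = 0.973). Tmem243, next after Crot, was −0.79 ± 0.28 on day 0 (adjusted p = 0.0957), −0.64 ± 0.32 on day 2 (adjusted p = 0.217) and −0.58 ± 0.32 on day 6 (adjusted p = 0.478). The median difference of the 23 probe sets was 0.27, 0.03 and 0.26 on the 3 days, against 0.01 for all tested probe sets on each day. The 23 include the 3 probe sets of Cd36, at 3.19, 3.57 and 2.52 on day 0. A median without Cd36 was not computed, so these medians show no general rise of the genes around Abcb4.

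**Figure D4:**
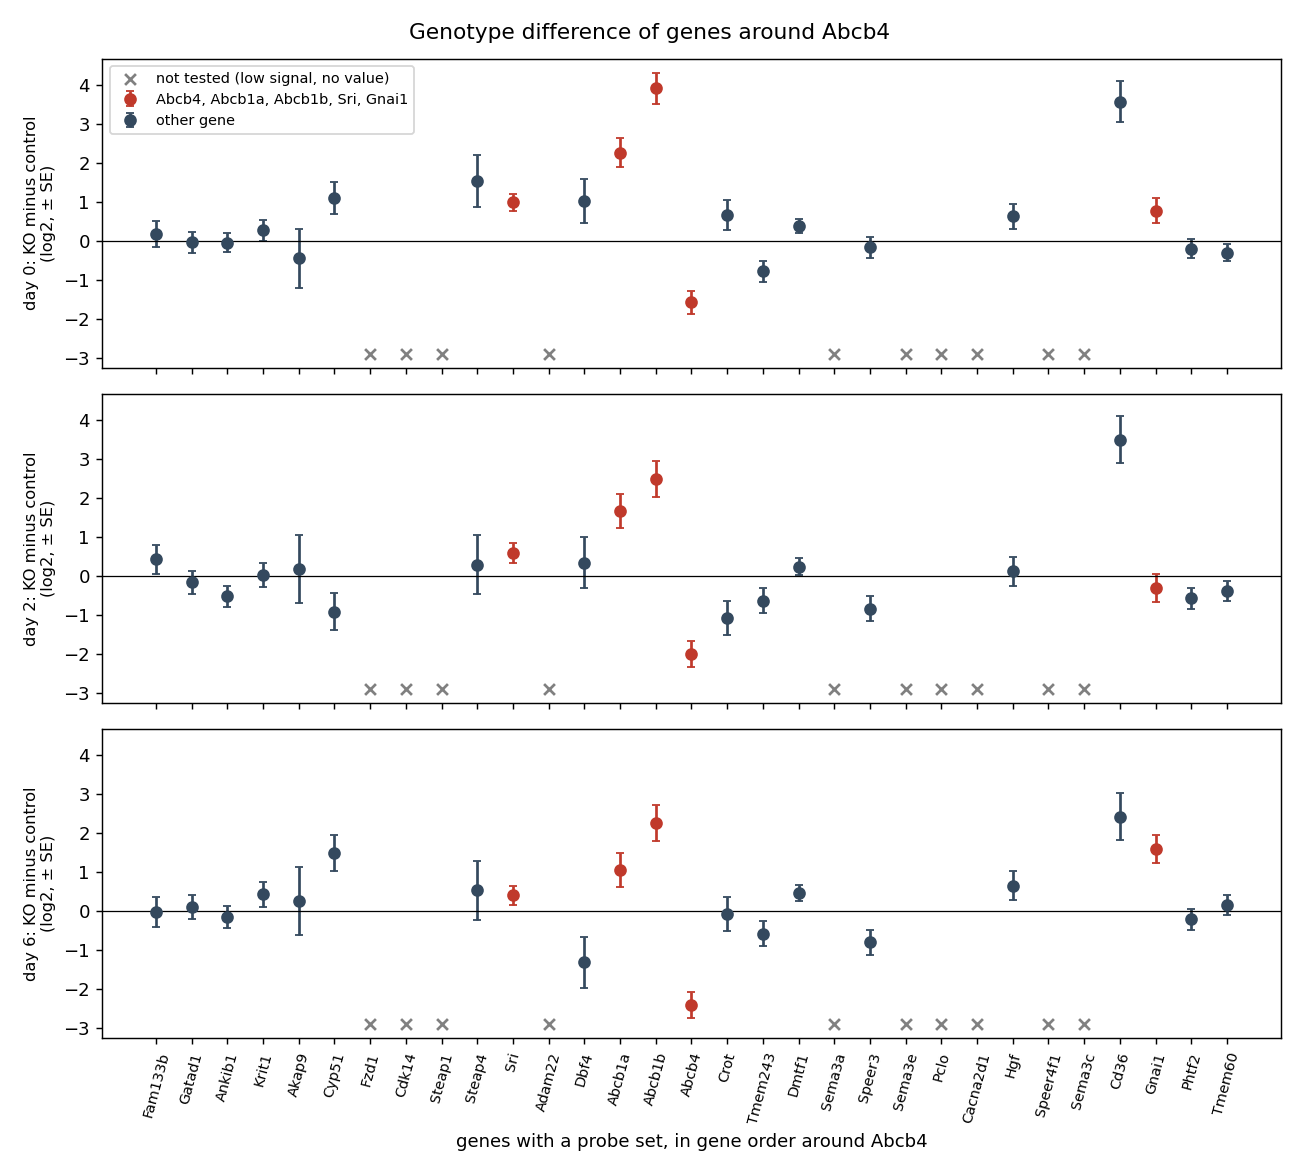
KO minus control difference in log2 signal (y axis, ± SE) on days 0, 2 and 6 for the genes with a probe set on each side of Abcb4, in gene order (x axis, not to distance), each by the probe set with its highest mean. Red points are Abcb4, Abcb1a, Abcb1b, Sri and Gnai1, dark blue points are other genes, and crosses at the bottom mark genes that were not tested. Abcb1a and Abcb1b lie above 0 beside Abcb4 below it, Crot next to Abcb4 is at 0.66 on day 0, and Cd36 is at 3.57.

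The genes whose signal followed each of these genes most closely over the 21 arrays were named by Pearson's r, as a description. Abcb4 was closest to Cd163 (r = 0.919), a haemoglobin scavenger receptor of macrophages, then to Tspan33 (0.899) and to Fen1 (0.866), a nuclease of DNA replication and repair. Abcb1b was closest to Bicc1 (0.947), Cystm1 (0.943) and the annexin Anxa5 (0.943). Abcb1a by 1419759_at was closest to the caveolin Cav1 (0.866), Mfge8 (0.847) and Entpd2 (0.843). Sri was closest to Ddx1 (0.934), Sptbn1 (0.925) and Ywhah (0.900), and Gnai1 to Ube2d2a (0.862), Pttg1ip (0.815) and Enc1 (0.807). The arrays are of 2 genotypes, so a gene that differs between them scores high by that alone. Only Ywhah, 1 of the 15, is on chromosome 5.

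Among genes of bile phospholipid and canalicular secretion, the process Abcb4 serves, 14 of 16 were tested. On day 0, by limma, 4 were lower and 2 higher in KO (7.98% of all tested probe sets passed in either direction), with a median of −0.41 against 0.01 for all probe sets. The lower ones were Abcg8 (−2.21 ± 0.41, adjusted p = 0.00186) and Abcg5 (−1.06 ± 0.27, adjusted p = 0.0202), whose products form the canalicular sterol transporter. The bile salt uptake carrier Slc10a1 (−1.22 ± 0.26, adjusted p = 0.00676) and the nuclear repressor Nr0b2 (−1.23 ± 0.31, adjusted p = 0.0181) were lower too. Chka, the choline kinase of phosphatidylcholine synthesis, was higher (2.95 ± 0.73, adjusted p = 0.0177), as was the bile salt export pump Abcb11 (0.77 ± 0.23, adjusted p = 0.0457). Abcg8 and Slc10a1 passed under all alternatives. Leaving out 1 of the 3 control day 0 arrays ended the calls of Abcg5 (control 265 or 303), Chka (263 or 265) and Nr0b2 (any of them), with adjusted p up to 0.116, 0.124 and 0.0886, and the Abcb11 call was lost under 13 of 31 alternatives. On day 2, when 6.15% of all tested probe sets passed, Pctp alone of the 14 did so (−3.17 ± 0.86, adjusted p = 0.0373). It encodes a phosphatidylcholine transfer protein, and its call was lost under 9 of 31. On day 6, 0 passed (1.36% of all), with 5 at an unadjusted p under 0.05.

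Calls among the other ABC transporters were near the share over all probe sets, 7.98% on day 0 and 6.15% on day 2. Of 21 tested, 1 was higher (Abca8b, 1.24 ± 0.36, limma adjusted p = 0.0392) and 1 lower (Abca8a, −0.90 ± 0.26, adjusted p = 0.038) on day 0. Abca2 alone was higher on day 2 (1.45 ± 0.37, adjusted p = 0.0315), and 0 passed on day 6, with 2 at an unadjusted p under 0.05. Each of these calls was lost under at least 7 alternatives. Of 8 genes of the xenobiotic receptors and their targets, Cyp2b10 was lower on day 0 (−2.78 ± 0.63, adjusted p = 0.00943) and on day 6 (−3.16 ± 0.73, adjusted p = 0.0351), and Gstm1 was higher on day 2 (2.40 ± 0.55, adjusted p = 0.0191). These calls were lost under 2, 6 and 4 of 31 alternatives. The share of all tested probe sets that passed was 7.98% on day 0, 6.15% on day 2 and 1.36% on day 6.

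Partners of Gnai1 and relatives of Sri were given by the same test. Of 18 genes of inhibitory G protein signalling, 4 were higher in KO on day 0, when 7.98% of all tested probe sets passed. They were the beta subunit Gnb1 (0.92 ± 0.18, limma adjusted p = 0.00366), the regulator Rgs2 (1.59 ± 0.38, adjusted p = 0.0125) and the adenylyl cyclases Adcy6 (0.92 ± 0.22, adjusted p = 0.0158) and Adcy7 (1.66 ± 0.50, adjusted p = 0.0496). Gnb1 passed under all alternatives, Rgs2 and Adcy6 were lost without control 265 or 303 on day 0 (adjusted p up to 0.0734 and 0.0841), and Adcy7 was lost under 16 of 30. The alpha subunits Gnai2 (0.95 ± 0.33, adjusted p = 0.0897) and Gnai3 (0.10 ± 0.28, adjusted p = 0.911) did not pass. On day 2, when 6.15% of all tested probe sets passed, Rgs5 was lower (−1.15 ± 0.30, adjusted p = 0.0322), a call lost under 6 of 31. On day 6, 0 passed (1.36% of all), with 3 at an unadjusted p under 0.05. Of 9 penta-EF-hand and calcium-handling genes, grancalcin Gca (1.27 ± 0.34, adjusted p = 0.0272) and the annexin Anxa7 (0.72 ± 0.20, adjusted p = 0.032) were higher on day 0, against the same 7.98%. These were lost under 7 and 6 of 31 alternatives. The calpain subunit Capns1 was higher on day 2 (0.80 ± 0.21, adjusted p = 0.035), against the same 6.15%, a call lost under 8 of 31. On day 6, 0 passed (1.36% of all), with 2 at an unadjusted p under 0.05.

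Some markers of other liver cells were higher in KO, as Abcb1a and Abcb1b were, and some were lower. In whole liver, more cells of a type and more RNA per cell cannot be told apart. Of 6 tested cholangiocyte and progenitor markers, 3 were higher in KO on day 0, 3 on day 2 and 2 on day 6, where 7.98%, 6.15% and 1.36% of all tested probe sets passed in either direction. Tspan8 was among them on each day. It lay between 2.71 and 2.98 on all control arrays and between 4.2 and 6.98 in KO, so it entered the tests through its KO values only. The mean log2 signal of the 8 such markers on the array lay between 4.88 and 5.92 in KO against 3.56 and 3.83 in control on day 0, where 1 marker in KO and 6 in control were at or under 4 on every array. It lay between 4.94 and 5.19 against 4.21 and 4.71 on day 2, and between 4.58 and 5.70 against 3.84 and 4.11 on day 6. Markers at or under 4 on every array numbered 3 in KO and 4 in control on day 2, and 1 and 5 on day 6. Of 9 tested stellate cell and myofibroblast markers, 7, 3 and 1 were higher in KO on days 0, 2 and 6. Their list mean was 6.41 to 8.13 in KO against 4.64 to 4.74 in control on day 0, 6.33 to 8.13 against 5.29 to 6.29 on day 2, and 6.42 to 8.08 against 5.09 to 5.50 on day 6. Of 8 endothelial markers, 0 passed by limma on any day, with 1, 2 and 1 at an unadjusted p under 0.05. Of 9 macrophage markers, only Cd163 passed, lower in KO on days 0, 2 and 6 (−3.39 ± 0.29, −4.60 ± 0.34 and −4.10 ± 0.34, limma adjusted p = 1.19e-06, 3.42e-07 and 1.11e-06), with 4, 4 and 2 of the 9 at an unadjusted p under 0.05. Cd163 lay between 2.46 and 2.69 on all KO arrays, near background, so each of its differences is a lower bound on the size. The list mean of the macrophage markers lay between 7.03 and 7.62 in KO against 6.64 and 7.43 in control on day 0. Of 9 hepatocyte markers, Hpd was lower on day 0 (−0.65 ± 0.18, adjusted p = 0.0303), while Hpd and Tat were higher on day 2 (0.88 ± 0.20, adjusted p = 0.0202, and 1.51 ± 0.42, adjusted p = 0.0414). These 3 calls were lost under 7, 6 and 15 of 31 alternatives. Cela1, the only pancreas marker tested, was lower on day 0 (−2.33 ± 0.43, adjusted p = 0.00169) and on day 6 (−2.08 ± 0.49, adjusted p = 0.0404), the day 6 call lost under 16 of 31. Cela1 lay between 7.40 and 8.59 in KO and between 7.84 and 10.62 in control. The other pancreas markers on the array were near background in both genotypes, Cpa1 at most 2.79 and Ctrb1 at most 2.24. Whether the Cela1 signal came from pancreas was not tested. Neither of 2 neutrophil markers passed on any day, with 0, 1 and 0 at an unadjusted p under 0.05, and no lymphocyte marker passed the filter. Without the 3 arrays with a raised Gapdh difference, 1 cholangiocyte and 0 stellate markers passed on day 2, in a comparison left with 1 control array. The part of these cells in the signal of Abcb1a, Abcb1b, Sri and Gnai1 was not tested.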

How the data were processed

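Total RNA from liver was extracted with Trizol and biotin-labelled by a 3-prime IVT protocol, per the labels' protocols. The authors deposited log2 signals of 22690 probe sets on 21 arrays, computed with GCRMA per the submitters' processing notes; neither the version nor any further step is stated in what was used here. Values ran from 1.33 to 15.54 and were used as deposited. Groups came from the sample titles. Gene names came from the platform annotation, in which 20380 probe sets had 1 symbol and were used, 691 had several, 1555 had none and 64 were array controls.

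Probe sets above log2 4 on at least 3 arrays were kept, 11177 of 7326 genes, and fitted in 1 limma model of the 6 groups (limma 3.58.1, R 4.3.3; 15 residual degrees of freedom). Tests were two-sided, with Benjamini-Hochberg adjustment over all tested probe sets and a threshold of 0.05. The model was tested on simulated data. The genes described and the lists were chosen with earlier results of these data known. Named genes were all probe sets of the 5 genes; neighbours past the threshold, among the 15 nearest on each side; the 3 genes most alike by Pearson's r; and up to 4 list members past the threshold with the largest change. Crot, Tmem243, Gnai2 and Gnai3, and list genes beyond 4, fall outside that rule and were named after their values were seen. For a list, a gene was represented by its probe set with the highest mean. Motifs were searched in RefSeq promoters (GRCm38.p6). Figures used matplotlib 3.10.9 in Python 3.11.15.

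Sample titles carry the number of the mouse, which pairs the samples of 9 mice. After subtracting group means, these pairs correlated at a median of 0.104 (lowest −0.179, highest 0.355, 5 above 0.1), and other pairs at −0.011. The mouse was fitted as a random and as a fixed block among the alternatives, with other filters, 1 probe set per gene, quantile normalization, centring, a robust fit, array weights, fits restricted to the groups compared and arrays left out.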

Additional observations from a re-analysis of the deposited data

Results flagged for a closer look

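Abcb1b stood out because its day 6 samples lay on opposite sides of the day 0 samples in KO and control. All 3 KO samples on day 6 (5.88 to 7.23) lay below all 6 KO samples on day 0 (7.26 to 7.90), a difference of −0.82 ± 0.40 (SE, log2). All 3 control samples on day 6 (4.16 to 4.96) lay above all 3 control samples on day 0 (3.13 to 4.08), a difference of 0.83 ± 0.46 in which 1 of the 3 day 0 arrays was above log2 4. By limma neither difference passed (adjusted p = 0.968 and 0.427), and the difference between the responses, −1.65 ± 0.61, gave an adjusted p of 0.669. Without KO 332 on day 6 the KO difference was −0.41. In the only control mouse sampled on both days, 303, Abcb1b was 4.16 on day 6 and 3.13 on day 0. The KO ranges of the 2 days nearly touched, at 7.23 and 7.26. How many of all tested probe sets were apart between these days was not counted, so the pattern only describes these samples. No sample of any probe set of the 5 genes lay outside its group by Dixon's test, which could be run for the 6 KO samples on day 0.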

How the results depend on the processing

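The KO minus control differences of Abcb4, Abcb1a and Abcb1b kept their sign under every alternative run. The groups of these probe sets did not overlap on any day, so leaving arrays out could not have turned the sign. The differences of Abcb4 ran from −1.73 to −1.39 on day 0, from −2.40 to −1.79 on day 2 and from −2.59 to −2.17 on day 6. Centring each array shifted the median of all probe sets on day 0 to −0.13. The count of 0 of 7 probe sets past the threshold held for KO between days and for both interactions. It became 1 with array weights for control day 6 against day 0 (Sri), and 1 under quantile normalization for control day 6 against day 2 (Gnai1). With single arrays left out it ranged from 0 to 1 for control day 2 against day 0 (1419758_at of Abcb1a without control 264, between values near background) and from 0 to 2 for control day 6 against day 2. The mouse as a replicate block gave 0 of 7 in each comparison it could be fitted to, and changed no call of these probe sets; for Abcb1b, KO day 6 minus day 0 was −0.83 with the random block and −0.86 with the fixed one. The fixed block could be fitted for KO day 2 and day 6 and control day 2 against day 0 only. Of probe sets of other genes, 887, 682 and 149 passed for KO against control on days 0, 2 and 6. With array weights these were 1875, 48 and 457, and with only the groups compared 8 on day 2 and 27 on day 6. Without the 3 arrays with a raised Gapdh difference they were 29 on day 2, where 1 control array was left and taken to vary like the other groups, and 255 on day 6, and with 1 probe set per gene 415 on day 2. With single arrays left out they ranged from 427 to 1134, from 109 to 2166 and from 65 to 185. Neighbour probe sets past the threshold numbered 3, 3 and 0. They were 1, 1 and 1 with 1 probe set per gene, and 5, 1 and 2 with array weights. They were 5 on day 0 with centring, and 5 and 0 on days 0 and 2 with only the groups compared. They were 5 on day 2 with quantile normalization, and 1 and 1 on days 2 and 6 without the 3 arrays. With single arrays left out they ranged from 3 to 4, from 2 to 7 and from 0 to 1. The causes were not tested, beyond the fewer arrays or probe sets that some alternatives hold. Signal near background limits Abcb1a in control, Abcb1b in control on day 0 and Gnai1 in control on days 0 and 6, and with them the comparisons of days in control.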
